A study of Mus musculus with 8 samples.

Results

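Integrin subunits are described here across cultured fibroblasts, induced hepatocyte lines and primary hepatocytes. The list held 10 genes (Itga1, Itga2, Itga3, Itga5, Itga6, Itgav, Itgb1, Itgb3, Itgb4 and Itgb8), chosen by name with earlier results of these data known. Of these, 9 had a probe set that carried their symbol alone, of 17097 genes measured in that way. Itgb8 had none and is not described. The study compared the whole transcriptome of cells converted from fibroblasts toward hepatocytes with that of the cells at either end of the conversion. Mouse embryonic fibroblasts (MEF, n = 2 arrays) were primary cells of strain C57/B6 from embryos at day 13.5, and for one of the samples the label adds that head and organs had been removed. The induced hepatocyte lines (iHep, n = 3 arrays) were epithelial lines at passage 10, grown from fibroblasts after retroviral transduction. Line 4a3 carried Hnf4a and Foxa3, line 4a3CK carried Hnf4a, Foxa3, c-Myc and Klf4, and line 4a1CK carried Hnf4a, Foxa1, c-Myc and Klf4, with 1 array for each line. Primary hepatocytes (PH, n = 3 arrays) came from male C57/B6 mice aged 8 to 10 weeks by collagenase perfusion and were then cultured in the hepatocyte medium that the lines also received, which held serum, dexamethasone, nicotinamide, insulin, transferrin, selenium and the growth factors FGF4, HGF and EGF. The lines were kept on dishes coated with type I collagen, itself an integrin ligand.

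Integrins are receptors that span the cell membrane as pairs of 1 alpha and 1 beta subunit and tie the extracellular matrix to the actin cytoskeleton. The alpha subunit largely sets the ligand. With the beta1 subunit (Itgb1), alpha1 and alpha2 bind collagens, alpha3 and alpha6 bind laminins and alpha5 binds fibronectin, while the alpha v subunit (Itgav) pairs with several beta subunits, among them beta1, beta3 and beta8, and binds vitronectin, fibronectin and latent TGF-beta. Beta4 pairs with alpha6 alone and anchors hemidesmosomes of epithelia. Inside the cell, talin and kindlin bind the beta tail and activate the receptor. Hepatocytes in the liver face a sparse matrix without a typical basement membrane, and cells in culture commonly change their integrins.

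Reference sequence upstream of the start site is given for Itgb1 and Itga3, the subunits that passed the test in opposite directions in both comparisons with fibroblasts. Both stretches are the 250 bases before a RefSeq start site of assembly GRCm38.p6, 5′ to 3′ on the gene's own strand. Capitals mark matches to GGGCGG (a GC box) or GGGTG (a core that Klf factors can bind), on either strand, so that CACCC and CCGCCC are their reverse forms. Itgb1 lies at chr8:128685404-128685653 on the + strand, and Itga3 at chr11:95076715-95076964 on the − strand, the more upstream of 2 start sites listed for it.
Itgb1: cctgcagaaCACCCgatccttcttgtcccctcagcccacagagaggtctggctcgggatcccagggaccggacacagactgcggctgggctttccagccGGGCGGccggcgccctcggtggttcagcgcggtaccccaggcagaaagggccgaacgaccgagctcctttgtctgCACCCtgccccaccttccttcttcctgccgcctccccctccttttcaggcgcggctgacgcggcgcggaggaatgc
Itga3: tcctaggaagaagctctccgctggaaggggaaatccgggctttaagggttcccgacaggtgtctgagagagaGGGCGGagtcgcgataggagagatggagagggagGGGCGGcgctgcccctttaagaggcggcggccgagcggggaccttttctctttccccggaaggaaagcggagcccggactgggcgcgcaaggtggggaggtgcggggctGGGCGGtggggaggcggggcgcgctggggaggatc
The Itgb1 stretch held 1 GC box and 2 CACCC, with 68.0% G and C. The Itga3 stretch held 3 GC boxes and no GGGTG, with 67.6% G and C. Windows from 250 bases before to 50 after the start were at hand for 7 of the 10 listed genes, 8 windows in all, and were searched on both strands for 6 motifs. GGGCGG was in 6 of the 8 windows and in 35.7% of all 32851 windows, and GGGTG was in 5 of the 8 and in 57.5% of all. Motifs named for the other transduced factors had no match in the 8 windows: CAAAGTCCA (Hnf4a) was in 0.475% of all windows, TGTTTAC (Foxa) in 3.65% and CACGTG (Myc) in 7.15%. TGANTCA (AP-1) was in 1 of the 8, the second Itga3 window, and in 7.81% of all. These matches describe letters and show no binding.

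All signals are on a log2 scale, 1 value for each probe set and array, after the authors' robust multi-array averaging. The median over all probe sets was between 4.23 and 4.45 on 7 arrays and 5.06 on PH 3, the hepatocyte sample without a number in its title. PH 1 and PH 2 were alike, with an SD over genes of their difference of 0.159, against 0.549 for PH 1 and PH 3 and 0.570 for the MEF arrays. The labels were set against marker lists. The mean of 8 fibroblast markers was 10.34 and 9.01 on the MEF arrays and between 3.67 and 4.67 on the others, and the mean of 7 hepatocyte markers was between 11.39 and 11.50 on the PH arrays and 3.96 and 4.01 on the MEF arrays. The lines had hepatocyte means of 8.84 (4a3), 7.84 (4a3CK) and 4.83 (4a1CK), and Alb was high on line 4a3 alone among them (9.30, against 3.80 and 4.01). The mean of 8 macrophage and other leukocyte markers was 5.53 and 5.79 on the MEF arrays, 4.73, 4.88 and 4.89 on 4a3, 4a3CK and 4a1CK, and 5.16, 5.13 and 5.57 on PH 1 to 3. Single markers of that list differed in direction: Lyz2 was 8.54 and 9.28 on the MEF arrays and at most 4.97 elsewhere, while Cd14 was 6.36 and 5.88 on the MEF arrays, 9.06 on 4a3CK and between 9.10 and 10.29 on the PH arrays. The mean of the 7 endothelial markers was between 3.82 and 4.67 on every array. Whether the fibroblast or hepatocyte samples were separate animals or cultures is not stated in the sources used here, so the p-values measure just the spread between arrays. In such bulk samples fewer cells of a type and less RNA per cell cannot be told apart.

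In 1 limma model of the 3 groups, passing took both an adjusted p below 0.05 and a change of 2-fold or more, 1 on the log2 scale. In PH against MEF, 1 of the 9 subunits was higher (Itga3) and 2 were lower (Itgb1 and Itgb3). Over all genes 3.37% passed as higher and 2.47% as lower. In iHep against MEF, 1 subunit was higher (Itga3) and 1 lower (Itgb1), where 1.98% of all genes passed as higher and 4.47% as lower. In iHep against PH no subunit passed, and 1.49% of all genes passed as higher and 5.64% as lower. At an unadjusted p under 0.05 there were 3 subunits in that last comparison. Groups stood apart, with every array of one above every array of the other, for 5 subunits in PH against MEF, 8 in iHep against MEF and 5 in iHep against PH. The share of all genes at that unadjusted p, or with groups apart in this way, was not counted. These counts therefore have no background beside them and describe the 9 subunits alone. The median difference of the 9 subunits was 0.16, 0.44 and 0.13 in these comparisons, and that of all genes 0.25, 0.16 and -0.09. Both comparisons with MEF used the same fibroblast arrays.

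**Figure D1:**
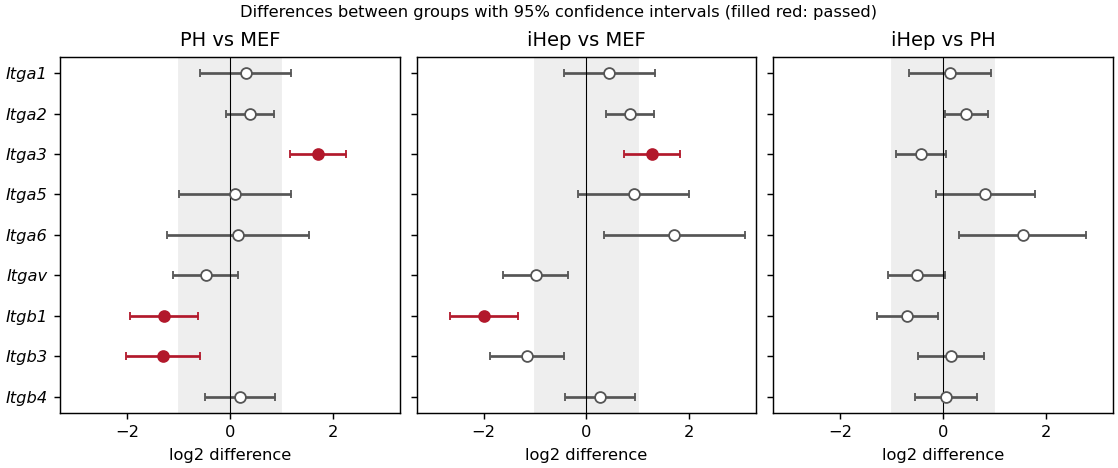
Log2 difference of each integrin subunit (horizontal axis) in 3 panels for the group comparisons, with 95% confidence intervals as bars and a shaded band from -1 to 1; filled red points passed. Itga3 lies at 1.71 and 1.28 and Itgb1 at -1.29 and -1.98 in the comparisons with MEF, and no point is filled in iHep against PH.

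The array scale differed enough to move the split of calls over all genes. As deposited, 577 genes were higher and 423 lower in PH against MEF, 339 and 764 in iHep against MEF, and 254 and 965 in iHep against PH. After quantile normalization these were 520 and 619, 692 and 914, and 607 and 736, and the median difference of all genes went from 0.25, 0.16 and -0.09 to 0.02, 0.05 and 0.03. With array medians subtracted they were 495 and 658, 674 and 912, and 641 and 711. All subunits that passed kept their direction under both scalings. Of those that did not pass, Itga5, Itga6 and Itgb4 changed sign in PH against MEF.

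**Figure D2:**
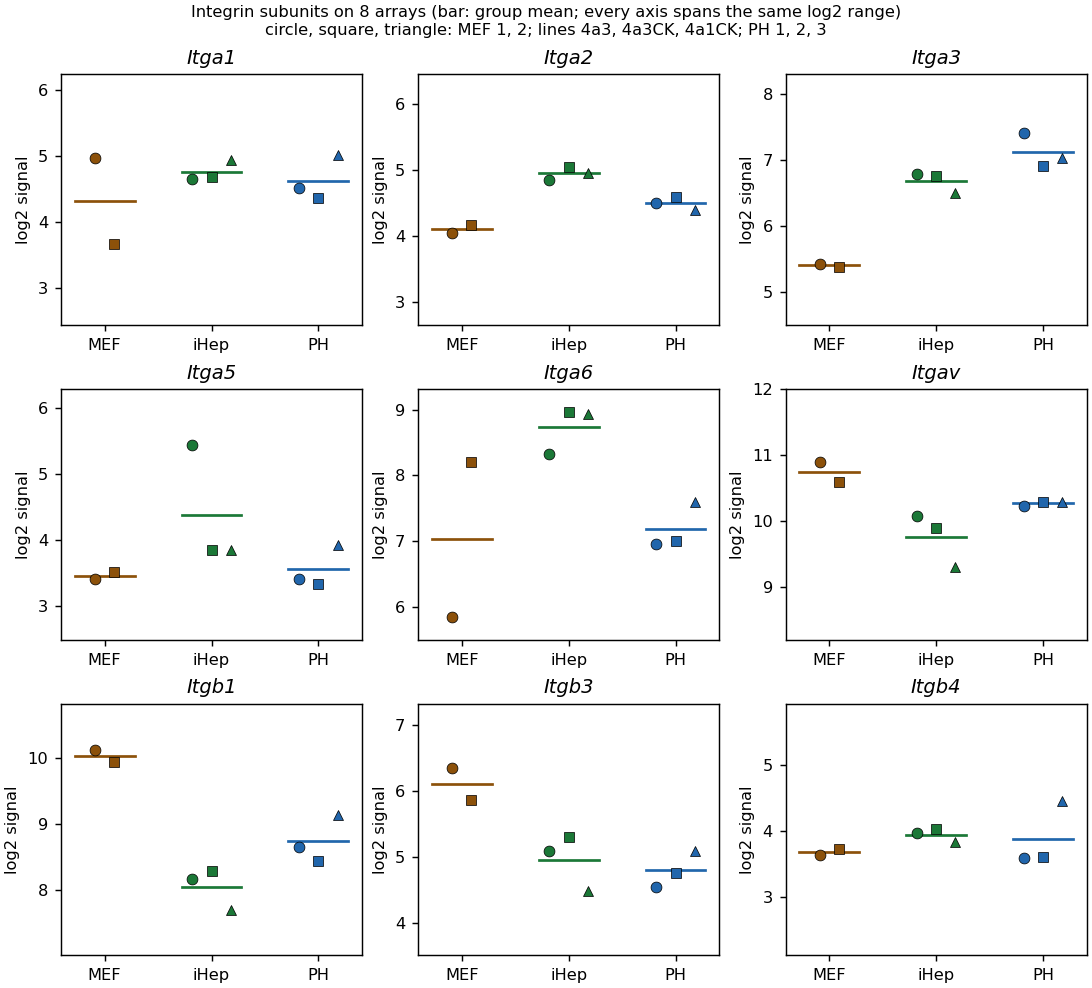
Log2 signal (vertical axis) of 9 integrin subunits on each array of MEF, iHep and PH, with group means as bars and the arrays of a group as circle, square and triangle in the order MEF 1, 2, lines 4a3, 4a3CK, 4a1CK, and PH 1, 2, 3. Itgb1 was highest in MEF (10.13 and 9.94), Itga3 was lowest there (5.42 and 5.38), and the MEF arrays were far apart for Itga6 (5.85 and 8.21).

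Itgb1, the beta subunit shared by the collagen, laminin and fibronectin receptors, was lower in both epithelial groups than in fibroblasts. It read 10.13 and 9.94 on MEF 1 and 2, 8.16, 8.29 and 7.70 on lines 4a3, 4a3CK and 4a1CK, and 8.65, 8.43 and 9.14 on PH 1 to 3. The groups did not overlap, with MEF highest, PH next and the lines lowest. The lines were lower than MEF by a log2 difference of -1.98 ± 0.29 (SE; n = 3 and 2; adjusted p = 0.00567), so that the fibroblast signal was 3.96-fold that of the lines. PH were lower than MEF by -1.29 ± 0.29 (adjusted p = 0.0354), a fibroblast signal 2.45-fold that of hepatocytes. Between the lines and PH the difference was -0.69 (95% interval -1.28 to -0.10, adjusted p = 0.164) and did not pass.

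The Itgb1 call in PH against MEF rested on several arrays. It was lost without MEF 1 (adjusted p = 0.228), MEF 2 (0.143), line 4a3 (0.0637), PH 1 (0.112) or PH 2 (0.118), with differences between -1.14 and -1.49 over all 8 omissions, and with PH 1 and PH 2 averaged to 1 sample (0.113). The call in iHep against MEF was lost without MEF 1 (-1.89, adjusted p = 0.0554) and held for the other 7 omissions. Arrays were deposited in 2 accession ranges, MEF 2, the lines and PH 3 in the first and MEF 1, PH 1 and PH 2 in the second. Within the first the PH minus MEF difference of Itgb1 was -0.81 and within the second -1.58, and iHep minus MEF within the first was -1.89.

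Itgb3, which pairs with alpha v as a vitronectin receptor and with alpha IIb on platelets, was also highest in fibroblasts. It read 6.35 and 5.88 on the MEF arrays, 5.10, 5.31 and 4.49 on 4a3, 4a3CK and 4a1CK, and 4.55, 4.77 and 5.10 on PH 1 to 3. Both MEF arrays lay above all others, and the lines and PH overlapped. All line and hepatocyte readings were below the brightest of 23 control probe sets named nonspecific on the same array, so the low side is uncertain. PH were lower than MEF by -1.31 ± 0.32 (adjusted p = 0.0485). That call was lost without MEF 1 (-1.07, adjusted p = 0.334), MEF 2 (0.110), line 4a3 (0.0800), PH 1 (0.150), PH 2 (0.134) or PH 3 (0.0512), and with the accession range as a block (-1.30, adjusted p = 0.0574). The call was lost too with PH 1 and PH 2 averaged (adjusted p = 0.140), with a trended and robust variance (0.0557) or in a model of the compared groups alone (0.0575). With the mean of all probe sets the difference was -0.70 (adjusted p = 0.192). Within the accession ranges the difference was -0.78 and -1.69. The lines differed from MEF by -1.15 ± 0.32 (adjusted p = 0.0707) and did not pass, although they did without PH 3 (adjusted p = 0.0313), after quantile normalization (0.0349) or with array medians subtracted (0.0304). The iHep minus PH difference of Itgb3 was 0.16 (95% interval -0.48 to 0.80). The mean of 5 megakaryocyte and platelet markers was 5.03 on both MEF arrays and between 4.00 and 4.68 on the others. Single markers of that list differed in direction. Ppbp was 7.24 and 5.97 on MEF 1 and 2 and at most 4.11 elsewhere. Pf4 was high on MEF 2 alone (6.70), and Gp1bb was highest on MEF 1 (4.71). Itga2b was 5.32 and 4.90 on the MEF arrays against 5.81 to 6.05 on the lines, and Gp9 4.10 and 3.99 against 4.56 to 4.64. The part of such cells in the Itgb3 difference was not tested.

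Itgb4, the hemidesmosome partner of alpha6, was dim on all arrays. It read 3.63 and 3.73 in MEF, 3.97, 4.02 and 3.82 in the lines and 3.58, 3.61 and 4.45 in PH, where PH 3, the array with the raised median, was highest. No array exceeded the brightest of 23 control probe sets named nonspecific, which lay between 4.96 and 6.82. The differences were 0.20 ± 0.30, 0.26 ± 0.30 and 0.06 ± 0.27 for PH over MEF, iHep over MEF and iHep over PH, with adjusted p between 0.669 and 0.957. Of the other subunits, Itga3, Itga6, Itgav and Itgb1 were above the brightest such control on all 8 arrays, Itgb3 on 2, and Itga1, Itga2 and Itga5 on 0, although all 9 were above the median control on 8 arrays.

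Itgav, the alpha subunit of receptors for vitronectin and for latent TGF-beta, was bright on every array. It read 10.90 and 10.60 on the MEF arrays, 10.08, 9.90 and 9.30 on 4a3, 4a3CK and 4a1CK, and 10.23, 10.30 and 10.29 on PH 1 to 3. The groups followed one another without overlap, MEF above PH above the lines, and line 4a1CK was lowest. The lines were below MEF by -0.99 ± 0.27 (95% interval -1.61 to -0.36, adjusted p = 0.0729) and did not pass as deposited. After quantile normalization the difference was -1.01 with an adjusted p of 0.0403, which passed. PH differed from MEF by -0.47 ± 0.27 (adjusted p = 0.493) and the lines from PH by -0.51 ± 0.25 (adjusted p = 0.288).

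Itga3, a laminin receptor subunit of epithelia, was higher in hepatocytes and in the lines than in fibroblasts. It read 5.42 and 5.38 on the MEF arrays, 6.79, 6.76 and 6.50 on 4a3, 4a3CK and 4a1CK, and 7.41, 6.91 and 7.03 on PH 1 to 3. The groups did not overlap, in the order PH, iHep, MEF. PH exceeded MEF by 1.71 ± 0.24 (adjusted p = 0.00351), a 3.27-fold higher signal, and this call held in each of the 8 omissions of an array. The difference was 1.65 within the first accession range and 1.73 within the second. The lines exceeded MEF by 1.28 ± 0.24 (adjusted p = 0.0171), 2.43-fold. That call was lost without MEF 1 (adjusted p = 0.111), MEF 2 (0.117) or line 4a3 (0.0752), with differences from 1.23 to 1.37. The lines differed from PH by -0.43 (95% interval -0.92 to 0.05, adjusted p = 0.307).

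Itga6, the other laminin receptor alpha subunit, was brightest in the lines, but the fibroblast arrays disagreed. It read 5.85 on MEF 1 and 8.21 on MEF 2, 8.33, 8.96 and 8.93 on 4a3, 4a3CK and 4a1CK, and 6.96, 7.01 and 7.61 on PH 1 to 3. The lines lay above both other groups on every array, and the hepatocytes lay between the MEF arrays. MEF 2 was 5.14-fold above MEF 1, and 0.930% of all genes were at least as far apart between these arrays. Several markers of other cells were also higher on MEF 2 than on MEF 1, among them Pf4 (6.70 and 3.79), Cd68 (6.23 and 4.31), Ngfr (5.60 and 4.31) and Krt19 (6.03 and 4.97), picked here for that difference. All other platelet markers were lower on MEF 2 than on MEF 1: Ppbp (5.97 and 7.24), Gp1bb (3.58 and 4.71), Itga2b (4.90 and 5.32) and Gp9 (3.99 and 4.10). So were the leukocyte markers Cd14 (5.88 and 6.36), Adgre1 (6.33 and 6.40), Csf1r (4.54 and 4.62) and Clec4f (3.74 and 3.93). Epcam (6.33 and 6.61), Lrat (3.73 and 3.85), Pecam1 (3.44 and 3.45), Cdh5 (3.95 and 3.97) and Vwf (3.53 and 3.55) were lower there too. All remaining markers of the leukocyte, endothelial, stellate and bile duct lists were higher on MEF 2. By whole lists, the bile duct mean was 5.14 and 4.82 on MEF 2 and MEF 1, the stellate mean 5.05 and 4.44, the macrophage mean 5.79 and 5.53, the endothelial mean 4.01 and 3.82, and the platelet mean 5.03 on both. The part of such cells in the Itga6 difference was not tested.

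With that spread no Itga6 comparison passed. The lines differed from MEF by 1.71 ± 0.60 (95% interval 0.33 to 3.09, adjusted p = 0.148). Without MEF 2 this was 2.89 (adjusted p = 0.00807), and without MEF 1 it was 0.53 (adjusted p = 0.697). Each omission of a MEF array, here and for other genes, leaves 1 fibroblast array, which is assumed to vary like the arrays of the other groups, so the gap between the MEF arrays does not enter that p. The lines differed from PH by 1.55 ± 0.54 (95% interval 0.32 to 2.78, adjusted p = 0.133), a signal 2.93-fold that of hepatocytes. Without either MEF array, and in a model of iHep and PH alone, the same difference had an adjusted p of 0.0219 and passed. PH and MEF differed by 0.16 ± 0.60, which was -0.61 within the first accession range and 1.14 within the second.

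The collagen receptor subunits Itga1 and Itga2 were both dim. Itga1 read 4.98 and 3.66 on MEF 1 and 2, 4.66, 4.69 and 4.95 on the lines and 4.51, 4.36 and 5.01 on PH 1 to 3. The lines and PH lay inside the range of the fibroblast arrays, except for PH 3 just above it, so no order of groups could be read. Its differences were 0.31 ± 0.39, 0.44 ± 0.39 and 0.13 ± 0.35 for PH over MEF, iHep over MEF and iHep over PH. Itga2 was more even, with 4.04 and 4.16 on the MEF arrays, 4.85, 5.04 and 4.95 on the lines and 4.49, 4.59 and 4.38 on PH. The groups did not overlap, in the order iHep, PH, MEF. The lines exceeded MEF by 0.84 ± 0.21 (adjusted p = 0.0476), a 1.79-fold signal that fell short of the 2-fold limit. Differences of PH from MEF (0.39 ± 0.21, adjusted p = 0.441) and of iHep from PH (0.46 ± 0.18, adjusted p = 0.199) did not pass.

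Itga5, the fibronectin receptor alpha subunit, stood out on a single array. It read 5.44 on line 4a3 and 3.85 on both 4a3CK and 4a1CK, against 3.41 and 3.52 on the MEF arrays and 3.41, 3.33 and 3.93 on PH 1 to 3. The remaining lines were close to the level of the other groups. The iHep mean therefore had the widest spread of any subunit in that group (4.38 ± 0.92, SD, n = 3). The lines differed from MEF by 0.92 ± 0.47 (adjusted p = 0.317) and from PH by 0.82 ± 0.42 (adjusted p = 0.331), and PH differed from MEF by 0.10 ± 0.47 (adjusted p = 0.913).

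The lines differ in their factors and had 1 array each, so their differences carry no test. None of the 9 subunits differed 4-fold or more (2 in log2 units) between any pair of lines, where 2.23% of all genes did so between 4a3CK and 4a3, 1.32% between 4a1CK and 4a3, and 3.16% between 4a3CK and 4a1CK. Itga5 came nearest. It was lower on 4a3CK than on 4a3 (log2 difference -1.58) and lower on 4a1CK than on 4a3 (-1.59), and 3.93% and 2.39% of all genes were at least as far apart in those pairs. Itga6 was higher by 0.63 on 4a3CK and by 0.60 on 4a1CK than on 4a3. Line 4a1CK had less Itgav than 4a3 (-0.78) and less Itgb3 (-0.61), and 4a3CK exceeded 4a1CK by 0.82 for Itgb3. Within a group of like label, Itga6 (-2.36) and Itga1 (1.31) differed more between MEF 1 and MEF 2 than Itga6 or Itga1 did between any pair of lines. Itga3 differed by 0.50 between PH 1 and PH 2, and 1.01% of all genes were at least as far apart there.

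Of the 9 subunits, 5 had more than 1 probe set, and the brightest was used. For Itgb1 the second set of like brightness gave -2.02 in iHep against MEF (adjusted p = 0.00261) and -1.07 in PH against MEF (adjusted p = 0.0426), and both passed. Another set, dimmer, gave -1.03 (adjusted p = 0.0571) and -0.17 (adjusted p = 0.737). The 2 remaining Itgb1 sets read between 2.66 and 3.55 on all arrays and showed 0.01 and 0.19 in PH against MEF. The second Itga6 set followed the first, with 4.36 and 7.40 on MEF 1 and 2, 6.97, 7.99 and 8.00 on the lines and 5.45, 5.45 and 5.90 on PH. It differed between the lines and PH by 2.06 (adjusted p = 0.114). A second Itga3 set, whose identifier marks possible binding to several transcripts, gave 1.34 in PH against MEF (adjusted p = 0.00924) and 0.69 in iHep against MEF (adjusted p = 0.122), and the remaining set gave 0.28 and 0.52. For Itgav a second set gave -1.38 in iHep against MEF (adjusted p = 0.0134), which passed. Its line readings (4.36, 4.34 and 4.23) were below the brightest nonspecific control. The remaining Itgav sets read between 2.95 and 4.27 and did not pass. They gave -0.10, 0.21 and 0.12 in iHep against MEF and 0.19, 0.20 and 0.24 in PH against MEF. The other Itgb3 set read between 3.27 and 3.67 and gave -0.09 and -0.24 in the comparisons of PH and of iHep with MEF.

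**Figure D3:**
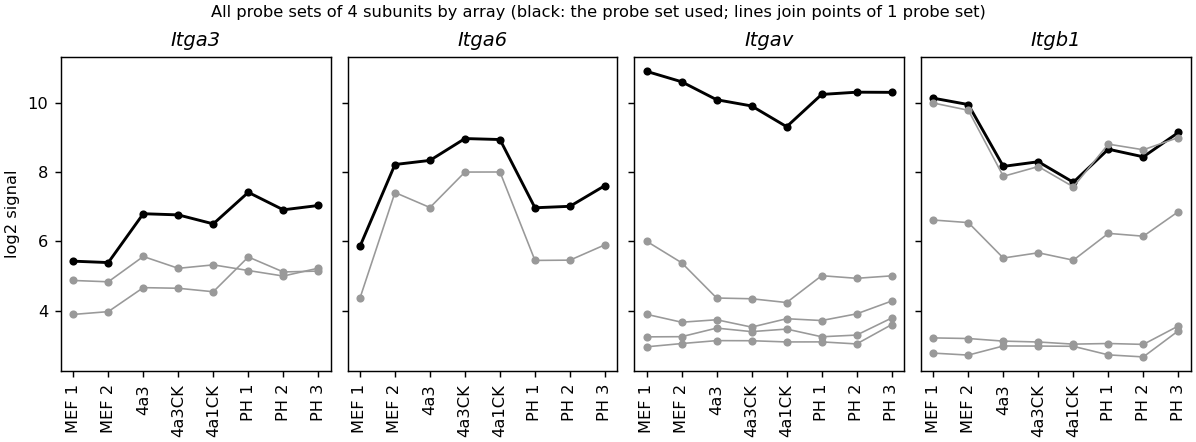
Log2 signal (vertical axis) of every probe set of Itga3, Itga6, Itgav and Itgb1 on the 8 arrays (horizontal axis), with the set used in black and the others in grey; lines join points of 1 set. The brighter pair of Itgb1 sets fell together from MEF (10.13 and 9.99 on MEF 1) to line 4a1CK (7.70 and 7.57), and both Itga6 sets were low on MEF 1.

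Among the other integrin subunits, 14 of 16 listed were measured, and 2 were lower than MEF in both comparisons while none was higher. Over all genes 2.47% were called lower in PH against MEF and 4.47% in iHep against MEF. The list's medians were 0.08 and -0.01, against 0.25 and 0.16 for all genes. Itga8, which pairs with beta1 and binds nephronectin, read 6.18 and 5.44 in MEF, 3.47 to 3.61 in the lines and 3.43, 3.29 and 4.31 in PH. It was lower by -2.25 in the lines (adjusted p = 0.00836) and by -2.13 in PH (adjusted p = 0.00900), and both calls were lost without MEF 1 (adjusted p = 0.0771 and 0.0895) and with the mean of all probe sets (-1.15, adjusted p = 0.0698, and -1.03, adjusted p = 0.111). Itga4, a subunit of receptors for fibronectin and Vcam1, read 5.48 and 5.75 in MEF, 4.04 to 4.50 in the lines and 4.34 to 4.71 in PH. Its differences were -1.34 (adjusted p = 0.0164) and -1.14 (adjusted p = 0.0291). The Itga4 call in the lines was lost without MEF 1 (adjusted p = 0.0753), MEF 2 (0.136) or 4a1CK (0.0504), and the call in PH was lost without any single array other than 4a3CK and PH 3 (adjusted p from 0.0522 to 0.228). With the mean of all probe sets the Itga4 differences were -0.27 (adjusted p = 0.594) and -0.28 (0.653). All lines and hepatocyte arrays read both genes below the brightest nonspecific control. In iHep against PH none of the 14 passed, while 1 did after quantile normalization or with array medians subtracted.

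Of the activators and adaptors that link integrins to actin, 22 of 26 listed were measured, and in each comparison more than 11 of them did not pass. In iHep against MEF, 7 were lower and 1 was higher, where 4.47% and 1.98% of all genes were called lower and higher, and the median was -0.94 against 0.16 for all genes. In iHep against PH, 9 were lower and 1 higher, where 5.64% and 1.49% of all genes were, with a median of -0.73 against -0.09. In PH against MEF, 1 was lower and 2 were higher, where 2.47% and 3.37% of all genes were, with a median of -0.14 against 0.25. In iHep against MEF the groups stood apart lower in the lines for 14 of the 22 and higher for 4. The share of all genes standing apart was not counted, so these numbers have no background beside them. The list was chosen with earlier results of these data known, so the counts are a description.

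Flna, the actin crosslinker filamin A that binds beta tails, showed the widest gap. It read 10.27 and 10.30 in MEF, 5.32, 5.86 and 5.48 on 4a3, 4a3CK and 4a1CK, and 9.76, 9.56 and 8.72 on PH 1 to 3. The lines were far below every other array, by -4.73 ± 0.33 against MEF (adjusted p = 0.000190) and by -3.79 ± 0.30 against PH (adjusted p = 0.000225). Both calls held in all 18 alternatives. The line readings of Flna were below the brightest nonspecific control on 4a3 and 4a1CK (6.19 and 5.91) and barely above it on 4a3CK (5.79), so no fold is given. Zyx, the focal adhesion protein zyxin, read 7.37 and 8.05 in MEF, 4.74, 4.41 and 5.45 in the lines and 7.04, 6.89 and 7.37 in PH. Its differences were -2.84 (adjusted p = 0.00278) and -2.23 (adjusted p = 0.00483), both lost with the mean of all probe sets (0.119 and 0.0667), and its line readings were also below that control.

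Tln1, the integrin activator talin 1, read 8.68 and 8.61 in MEF, 5.87, 5.95 and 6.15 in the lines and 8.67, 8.52 and 6.93 on PH 1 to 3, so that PH 3 lay well below the other hepatocyte arrays. It was lower in the lines by -2.66 against MEF (adjusted p = 0.0146), a call lost without MEF 1 (0.0923) or MEF 2 (0.0797), and by -2.05 against PH (adjusted p = 0.0228), a call lost without line 4a3 (0.0816), PH 1 (0.0832) or PH 2 (0.0879). The call against PH was also lost with the accession range as a block (-1.40, adjusted p = 0.0734), after quantile normalization (0.0997), with array medians subtracted (0.0928) or with PH 1 and PH 2 averaged (0.0846). Lims2, a partner of integrin-linked kinase also called Pinch2, was higher than MEF in both groups, by 3.33 in PH (adjusted p = 0.00650) and by 2.24 in the lines (adjusted p = 0.0393). The Lims2 call in PH was lost without MEF 1 (0.0526), and that in the lines without MEF 1, MEF 2, 4a3, 4a1CK, PH 1 or PH 2 (from 0.0655 to 0.201). The Lims2 call in the lines was also lost with the accession range as a block (0.105), with PH 1 and PH 2 averaged (0.0652) or in a model of the compared groups alone (0.0798), and that in PH with the replicate block (0.0983). Tln2 was lower in PH than in MEF by -1.92 (adjusted p = 0.0123), and not without MEF 1 (0.103) or MEF 2 (0.0669), nor with the mean of all probe sets (-0.57, adjusted p = 0.418). Pxn, the scaffold paxillin, was higher there by 1.55 (adjusted p = 0.0139), lost without MEF 1 (0.128), MEF 2 (0.0664), PH 1 (0.0569) or PH 2 (0.0572). The Pxn call was also lost after quantile normalization (1.33, adjusted p = 0.133), with array medians subtracted (1.29, 0.164), with PH 1 and PH 2 averaged (0.0564) or with the mean of all probe sets (0.92, under 2-fold). Parvb, beta-parvin, was the adaptor higher in iHep than in PH, by 1.99 (adjusted p = 0.0445), lost without any single array other than 4a3CK (from 0.0529 to 0.148), with the accession range as a block (0.149), with PH 1 and PH 2 averaged (0.134), in a model of those groups alone (0.0590) or with the mean of all probe sets (0.135). Parva, alpha-parvin, named after its values were seen, was lower in the lines by -1.85 and -1.40 against MEF and PH, and both calls held in all 18 alternatives. Its line readings (5.04, 5.50 and 5.24) were below the brightest nonspecific control. So were Lims2 on the MEF arrays (4.56 and 4.73), Tln2 on PH 1 to 3 (4.33, 4.85 and 5.54) and Parvb there (4.65, 4.61 and 5.03). The low side of these differences is therefore uncertain.

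The number of adaptors that passed as lower moved with single arrays and with the scale. In iHep against MEF it was 3 without MEF 1 and 3 without MEF 2. In iHep against PH it was 6 without either MEF array, 8 without PH 3, and 3 after quantile normalization, with array medians subtracted or with PH 1 and PH 2 averaged. These settings were added after the data were seen. The fibroblast marker mean was also lower in the lines than in MEF by the values given above, and its part in the adaptor differences from MEF was not tested; the lines (3.67 to 4.13) and PH (4.54 to 4.67) were closer for those markers.

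**Figure D4:**
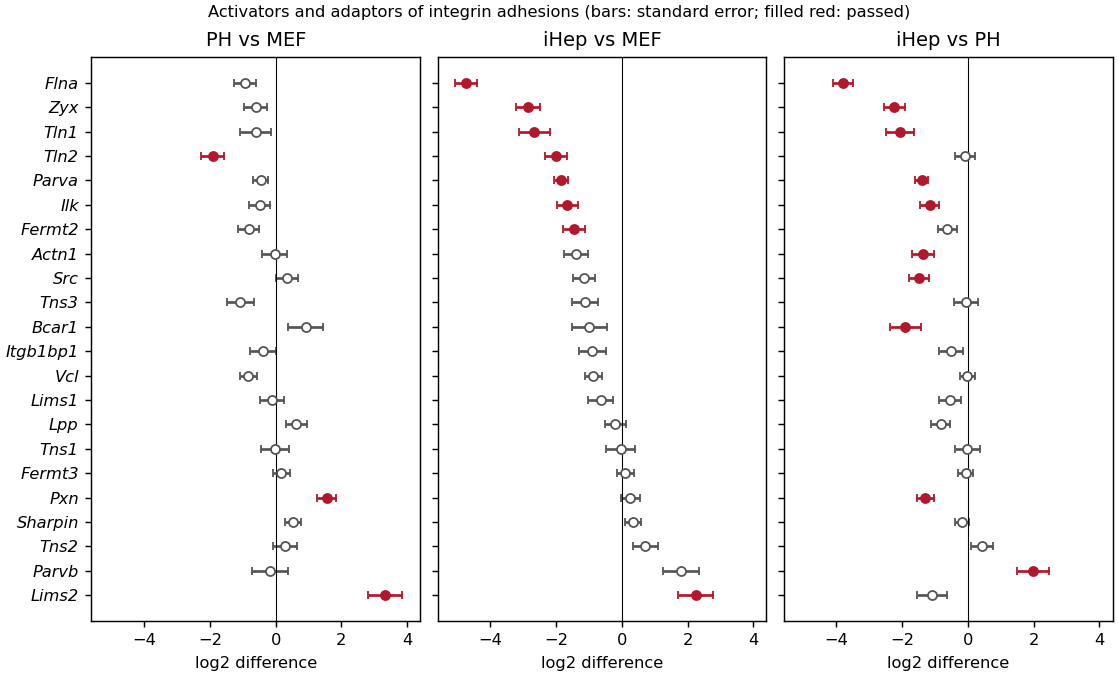
Log2 difference (horizontal axis) of 22 measured activators and adaptors of integrin adhesions in 3 panels for the group comparisons, with standard errors as bars and filled red points for those that passed. Flna lies at -4.73 and -3.79 in the iHep comparisons, with 7 and 9 adaptors filled below 0.

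Of the ligands and latent TGF-beta proteins, 23 of 28 were measured. In PH against MEF, 7 were lower and 1 higher, in iHep against MEF 3 were lower and none was higher, and in iHep against PH 3 were lower and 3 higher. The shares of all genes called lower and higher were 2.47% and 3.37%, 4.47% and 1.98%, and 5.64% and 1.49% in that order. The list's medians were -0.63, -0.64 and -0.08, against 0.25, 0.16 and -0.09 for all genes. Vtn, vitronectin, a plasma ligand of alpha v receptors made by the liver, read 10.08 to 10.38 in PH and 3.29 to 3.79 on all MEF and iHep arrays. The hepatocyte signal was above that of MEF by 6.86 (adjusted p = 3.18e-06). All MEF and iHep readings of Vtn were below the brightest nonspecific control, so the low side is near background and no fold is given. Tnc, the matrix protein tenascin C, read 11.50 and 10.41 in MEF, 3.65, 3.91 and 3.78 in the lines and 6.52, 6.15 and 4.90 in PH. It was lower than MEF by -7.18 in the lines and by -5.10 in PH (adjusted p = 0.000162 and 0.000511). The line readings of Tnc were below that control, as were those of PH 3. Col1a1, a chain of type I collagen, was lower by -5.66 and -5.05 (adjusted p = 0.000529 and 0.000590), and no line or hepatocyte array read it above that control.

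Lamb1, the laminin beta1 chain in ligands of alpha3 and alpha6, differed between the lines and hepatocytes. It read 9.65 and 9.31 in MEF, 10.65, 9.25 and 9.27 in the lines and 3.95, 4.00 and 5.83 in PH. All lines and fibroblasts were bright and the hepatocytes dim, by 5.13 ± 0.56 for iHep against PH (adjusted p = 0.00140) and -4.89 ± 0.63 for PH against MEF (adjusted p = 0.00243). No hepatocyte array read Lamb1, Lamb2 or Ltbp1 above the brightest nonspecific control. Lamb2 was higher in the lines than in PH by 1.40 (adjusted p = 0.00884). Ltbp1, a protein that stores latent TGF-beta in the matrix, read 10.01, 7.39 and 6.99 on 4a3, 4a3CK and 4a1CK and 4.08, 4.25 and 4.61 on PH 1 to 3. It was higher in the lines by 3.82 (adjusted p = 0.0129), and by 2.88 without line 4a3 (0.00158). That call was lost without PH 1 (0.0549) or PH 2 (0.0501), with both averaged (0.0513) or with the accession range as a block (3.62, adjusted p = 0.0605). Tnc and Tgfb3 were lower in the lines than in PH, by -2.08 (adjusted p = 0.0253) and -1.05 (adjusted p = 0.0370), and both calls were lost without 4a3, 4a1CK, PH 1 or PH 2 (from 0.0609 to 0.133), that of Tgfb3 also without 4a3CK (0.0678). After quantile normalization they were -1.95 (adjusted p = 0.0772) and -0.87 (0.129), and with array medians subtracted -1.88 (0.0869) and -0.85 (0.135). With PH 1 and PH 2 averaged both calls were lost too (0.0901 and 0.127), and that of Tgfb3 with the accession range as a block (0.0866) or a trended and robust variance (0.0691). In iHep against MEF, Tgfb3 was lower by -4.51 (adjusted p = 0.000108), and no line read it above that control.

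Of the hemidesmosome and tetraspanin partners, 8 of 9 were measured, of which 2 were higher in PH than in MEF and 2 lower in iHep than in PH. Over all genes 3.37% were called higher in PH against MEF and 5.64% lower in iHep against PH. The list's medians in these comparisons were 0.25 and -0.27, against 0.25 and -0.09 for all genes. Cd151, the tetraspanin that binds the laminin receptors alpha3 and alpha6, read 8.95 and 8.90 in MEF, 9.72, 10.23 and 9.63 in the lines and 10.83, 10.71 and 11.17 in PH. The groups did not overlap. PH exceeded MEF by 1.98 ± 0.26 (adjusted p = 0.00286), in 19 of 19 alternatives. The lines were below PH by -1.04 (adjusted p = 0.0332), a call lost without any single array other than 4a3CK, with differences down to -0.91 (without PH 3) and adjusted p up to 0.143. It was under 2-fold after quantile normalization (-0.96) or with array medians subtracted (-0.85), and was lost with PH 1 and PH 2 averaged (0.0846) or in a model of those groups alone (0.0605). Dst, dystonin, a plakin that in epithelia ties keratins to hemidesmosomes, was higher in PH than in MEF by 1.12 (adjusted p = 0.0487), a call lost without any single array other than 4a3CK (from 0.0620 to 0.242). It was lost too in 8 alternatives of other kinds at the same threshold (adjusted p from 0.0508 to 0.195), with quantile normalization and array medians subtracted among them. It was lower in the lines than in PH by -1.18 (adjusted p = 0.0225), a call lost without 4a3, 4a1CK, PH 1 or PH 2 (from 0.0815 to 0.107), with array medians subtracted (-0.98, 0.0642), with the mean of all probe sets (-0.80), with PH 1 and PH 2 averaged (0.0825) or with the accession range as a block (0.0575). No partner passed in iHep against MEF, although 1 did without MEF 1.

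For the 3 subunits with the widest range over the arrays, the genes of nearest pattern were sought by the mean absolute difference of values centred per gene, over 8 arrays. Nearest to Itgb1 were Nrp2 (0.14), Prickle2 (0.17) and Fam171b (0.17). Nearest to Itga5 were Cited1 (0.12), Lamb3 (0.16) and Lgr6 (0.16), each brightest on line 4a3. Lamb3, a laminin chain, read 5.71 on 4a3 and between 3.29 and 4.35 elsewhere. Neither Lamb3 nor Itga5 was above the brightest nonspecific control on any array, 4a3 included (6.19). Nearest to Itga6 were Cdt1 (0.33), Gprc5b (0.36) and Lgr4 (0.38), each brightest on line 4a1CK. All 3 were lower on MEF 1 than on MEF 2, with 8.44 and 9.30 for Cdt1, 5.36 and 5.94 for Gprc5b and 8.04 and 8.54 for Lgr4. These gaps were smaller than that of Itga6 (5.85 and 8.21). The genes were picked by their pattern over these same arrays, so shared directions and shared brightest arrays follow from the choice.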

How the data were processed

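RNA of 8 samples was measured on Affymetrix perfect-match 3' arrays. The authors deposited log2 signals, computed with RMA in Partek per the submitters' processing notes. The sources used here give no versions, and log base 2 is taken from RMA's usual output. Of 45141 probe sets, 104 were controls, 28898 carried 1 gene symbol, 551 several and 15588 none. For 7180 genes with more than 1 probe set, the brightest on average over 8 arrays was taken, giving 17097 genes. The number of arrays limits the precision.

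Groups came from the labels. limma 3.58.1 (lmFit, eBayes; R 4.3.3) fitted 1 model with 3 groups to every array, two-sided, leaving 5 residual degrees of freedom, with Benjamini-Hochberg adjustment over 17097 genes. The model was tested on simulated data. Errors are standard errors of the fit. Tables and plots used Python 3.11.15, pandas 2.3.3, numpy 2.4.6 and matplotlib 3.10.9.

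Named genes were the subunits on every array; of each list all genes that passed when 5 or fewer, otherwise the 3 with the largest difference each way; and the 3 genes nearest in pattern to the 3 widest-ranging subunits. Members and lists were chosen with earlier results of these data known. Alternatives were the mean of all probe sets, leaving out cross-hybridizing probe sets or dim genes (no value over 4.09, percentile 40), quantile normalization, median subtraction, trended robust variance, only the groups compared, adjusted p under 0.01, PH 1 and PH 2 averaged, accession range or replicate number as a block, and leaving out each array. The crossed pairing, other probe sets and list settings were chosen after seeing the data.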

Additional observations from a re-analysis of the deposited data

How the results depend on the processing

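Of 504 values of single subunits under alternatives other than another probe set, 30 lost a call, 8 gained one, 25 changed sign between values that did not pass, and 0 calls reversed. In PH against MEF the 3 subunits that passed became 1 with the mean of all probe sets, 1 with only the groups compared, 1 at an adjusted p under 0.01 and 1 with PH 1 and PH 2 averaged, and between 1 and 3 when an array was left out. The 1000 genes that passed there became 522 at the stricter threshold and between 575 and 1156 when an array was left out. In iHep against MEF the 2 subunits became 0 with the mean of all probe sets, 4 after quantile normalization, 1 at the stricter threshold and between 0 and 3 without an array, and the 1103 genes became 389 at the stricter threshold and between 471 and 1874 without an array. In iHep against PH the 0 subunits became 1 with only the groups compared and between 0 and 1 without an array, and the 1219 genes became 476 at the stricter threshold, 588 with PH 1 and PH 2 averaged and between 576 and 1806 without an array. The counts of 0 subunits between lines stayed at 0 in the 4 alternatives run. Other probe sets of Itgb1 that read at most 3.55 on all arrays turned the sign, to 0.00705 and 0.19 in PH against MEF and to 0.23 in iHep against MEF, with adjusted p from 0.670 to 0.988. The cause of these changes was not tested. The means over probe sets include such dim sets.

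Whether the replicate numbers of MEF and PH pair the samples is not stated in the sources used here. The MEF 1 minus MEF 2 and PH 1 minus PH 2 differences had a correlation of -0.197 over genes. This cannot decide the question, because PH 1 and PH 2 differed little (SD over genes 0.159). With the replicate block, 2 subunits and 768 genes passed in PH against MEF, and with the crossed pairing 2 and 779. The block moved Itgb3 to -1.45 with an adjusted p of 0.108, and it changed no other call of a subunit. Dim probe sets limit Itga1, Itga2, Itga5 and Itgb4, which never exceeded the brightest nonspecific control. They also limit Itgb3, which exceeded it on the 2 MEF arrays alone.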

Other observations

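Some integrin genes and ligands outside the naming rule are given here as values, picked after those values were seen. Itga10, a collagen receptor subunit, read 4.46 and 4.59 on the MEF arrays, 5.95, 7.34 and 5.66 on lines 4a3, 4a3CK and 4a1CK, and 4.71, 4.51 and 5.07 on PH 1 to 3. All lines lay above all other arrays, and 4a3CK was highest. Only on 4a3CK was Itga10 above the brightest nonspecific control. That control was itself higher on those lines (6.19, 5.79 and 5.91) than on the MEF arrays (5.07 and 5.24). Itgb5, a partner of alpha v, read 10.03 and 8.83 in MEF, 8.33, 7.37 and 8.71 in the lines and 8.18, 8.02 and 7.94 in PH, and its second probe set also read lowest on 4a3CK (7.07). Fn1, fibronectin, was bright throughout, with 11.63 and 11.24 in MEF and 11.89 to 12.23 in PH, and it read 9.71 on 4a3CK against 11.45 and 11.47 on the other lines. Col4a1 read 9.86 on 4a1CK against 7.15 and 7.16 on 4a3 and 4a3CK, and Cd9 read 11.17, 11.36 and 10.14 on 4a3, 4a3CK and 4a1CK against 9.56 to 9.99 in the other groups.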
